A study of Rattus norvegicus with 12 samples.

Results

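Hox genes encode transcription factors that give positions along the body axis their identity, and 34 of the 18749 genes in a count table of rat intestine carry a Hox symbol made of a cluster letter (A to D) and a paralog number. Every such row was taken, whatever its level, which gave 10 genes of cluster A, 9 of cluster B, 6 of cluster C and 9 of cluster D. The 12 libraries came from polyadenylated RNA of intestine of wild-type rats, in a series on the adaptation of the small intestine once the whole colon has been removed. The group postSTC (replicates 1, 2, 5 and 7) is labelled postoperative, preSTC (replicates 1, 5, 7 and 9) preoperative, and preCTC (replicates 1, 5, 7 and 9) as taken before sham surgery. The labels put all 12 libraries in batch 1, do not explain STC or CTC, and name the tissue as intestine with no segment. Neither strain nor age nor the interval after the operation is stated in the labels. Nor do they tie each replicate to an animal of its own, and p-values therefore cover the spread among these libraries, part of which may be technical.

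As background, Hox genes lie in 4 clusters, and within a cluster the order of the genes follows the order of their expression domains from head to tail. Low paralog numbers are used from the hindbrain backwards, and high ones, such as paralog group 13, at the caudal end of the trunk, in the limb tips and in the urogenital tract. In the gut, nested Hox domains of the mesoderm and the epithelium mark levels from foregut to rectum, and in mice Hoxa13 and Hoxd13 are needed for the hindgut, its muscle and the anal sphincter. Hox proteins bind DNA with cofactors of the TALE class (Pbx, Meis and Pknox), and caudal genes, retinoic acid, Polycomb and Trithorax proteins act on when and where the clusters are active.

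Promoter sequence shows one feature that the choice of the Hox genes did not use, a density of CpG dinucleotides far above that of most promoters. All 34 genes matched a RefSeq gene by identifier, and 18 had a promoter in the RefSeq table (rat assembly GRCr8). In the 250 bases before the transcription start, the median number of CpG was 20.0 in the 18 Hox promoters and 5.0 over all 33469 promoters, and the median GC content was 63.6% against 51.2%. The promoters of Hoxa13 (39 CpG) and Hoxd13 (30 CpG), paralog group 13 genes with large differences between groups, stand beside that of Hoxc4. With 3 CpG it is the lowest of the 18 and the only cluster C promoter, and none is of cluster B. Hoxc4 was higher in preSTC than in preCTC and the other genes shown lower, but so were Hoxa2 (6 CpG) and Hoxa11 (11 CpG). A relation of CpG number to direction was not tested. Each promoter below is written 5′ to 3′ on the gene's own strand, with CG in capitals.
Hoxa13, GRCr8 chr4:82691702-82691951, minus strand: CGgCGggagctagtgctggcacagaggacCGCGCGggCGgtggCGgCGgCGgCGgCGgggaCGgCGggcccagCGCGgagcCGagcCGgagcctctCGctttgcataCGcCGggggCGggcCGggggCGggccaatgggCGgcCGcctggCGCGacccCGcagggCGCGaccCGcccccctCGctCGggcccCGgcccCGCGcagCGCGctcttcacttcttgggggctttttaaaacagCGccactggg
Hoxd13, GRCr8 chr3:79977827-79978076, plus strand: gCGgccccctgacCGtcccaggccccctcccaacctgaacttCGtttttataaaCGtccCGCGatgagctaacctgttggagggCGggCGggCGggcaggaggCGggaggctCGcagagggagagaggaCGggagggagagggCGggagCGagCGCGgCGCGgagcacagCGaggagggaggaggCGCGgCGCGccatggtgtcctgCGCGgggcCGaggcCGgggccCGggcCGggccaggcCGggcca
Hoxc4, GRCr8 chr7:136048809-136049058, plus strand: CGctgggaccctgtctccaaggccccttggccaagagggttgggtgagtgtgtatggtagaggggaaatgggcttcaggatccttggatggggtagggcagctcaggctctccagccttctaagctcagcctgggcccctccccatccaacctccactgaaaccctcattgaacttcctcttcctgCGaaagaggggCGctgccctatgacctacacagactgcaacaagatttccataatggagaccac

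The same windows were searched on both strands for a motif of posterior Hox and caudal proteins (CAATAAA), the homeodomain core TAATTA and a composite of Pbx and Hox proteins (TGATTNAT). CAATAAA was in none of the 18 Hox promoters and in 4.08% of all 33469. TAATTA was in 1 of 18, Hoxd11, and in 4.86% of all promoters. TGATTNAT was in 2 of 18, Hoxa2 and Hoxd11, and in 2.82% of all promoters. The Hoxd11 promoter is therefore the Hox promoter that holds 2 of these motifs side by side, and it is shown with TAATTA and the composite, which reads on the minus strand, in capitals. A match describes the letters of the window and not a bound site.
Hoxd11, GRCr8 chr3:79992144-79992393, plus strand: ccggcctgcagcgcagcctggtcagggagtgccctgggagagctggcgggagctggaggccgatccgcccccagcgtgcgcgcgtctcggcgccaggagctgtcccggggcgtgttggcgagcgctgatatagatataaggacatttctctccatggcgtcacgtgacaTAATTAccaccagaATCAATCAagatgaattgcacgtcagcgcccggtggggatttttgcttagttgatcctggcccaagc

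The libraries held 30095656 to 39374682 counts, and a count of 0 in a library still allows up to 3 counts, or 0.0723 to 0.134 CPM (counts scaled to library size, with TMM factors that correct for composition). Such limits and the intervals below cover counting error only. The postSTC7 library stood apart, with 43.5% of its counts from 12 genes of the male accessory glands, against at most 0.0348% in any other library. The 8 markers of the ileum summed to 2442 to 7549 CPM in postSTC, 6440 to 7573 CPM in preSTC and 379 to 433 CPM in preCTC, and the 9 markers of the colon to 723 to 1271, 757 to 1259 and 2450 to 5583 CPM in the same groups. Single genes carried much of these sums. In preCTC the ileum list gene Mep1a had 350 to 381 CPM. The colon list gene B3galt5 had 268 to 594 CPM in postSTC and 555 to 992 CPM in preSTC, while 5 of the 9 colon markers were called higher in postSTC than in preSTC. In preCTC the ileal bile acid carrier gene Slc10a2 was at 0.105 to 0.458 CPM, against 524 to 578 CPM in preSTC. In preSTC against preCTC, 7 of 8 ileal markers were called higher (19.1% of all genes were) and 8 of 9 colon markers lower (19.6% of all genes). The preCTC libraries were therefore low in ileal markers and, against preSTC, high in most colon markers. The labels nevertheless give all groups the same tissue, and this stands beside each comparison with preCTC below.

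The 3 groups used different parts of the Hox clusters. Levels of different genes are compared as FPKM (per length, divided here by the TMM factor). In postSTC, Hoxb13 was highest, at 31.4 to 92.5 FPKM, followed by Hoxb9 (14.2 to 23.3), Hoxb7 (11.4 to 20.4) and Hoxd13 (8.09 to 25.5), whose ranges overlap each other. In preSTC the top members were Hoxb9 (16.8 to 30.7 FPKM) and Hoxb7 (19.7 to 28.1), again with overlapping ranges, followed by Hoxb6 (9.94 to 13.6) and Hoxc8 (5.83 to 7.66), with no overlap between these. In preCTC, Hoxb13 had 330, 1.07, 246 and 234 FPKM in replicates 1, 5, 7 and 9, Hoxa13 had 28.8 to 45.8 FPKM, Hoxd13 0.684 to 55.4 FPKM and Hoxb9 11.0 to 25.4 FPKM. In 3 of the 4 preCTC libraries Hoxb13 lay far above all other members, and in replicate 5 far below Hoxa13.

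**Figure D1:**
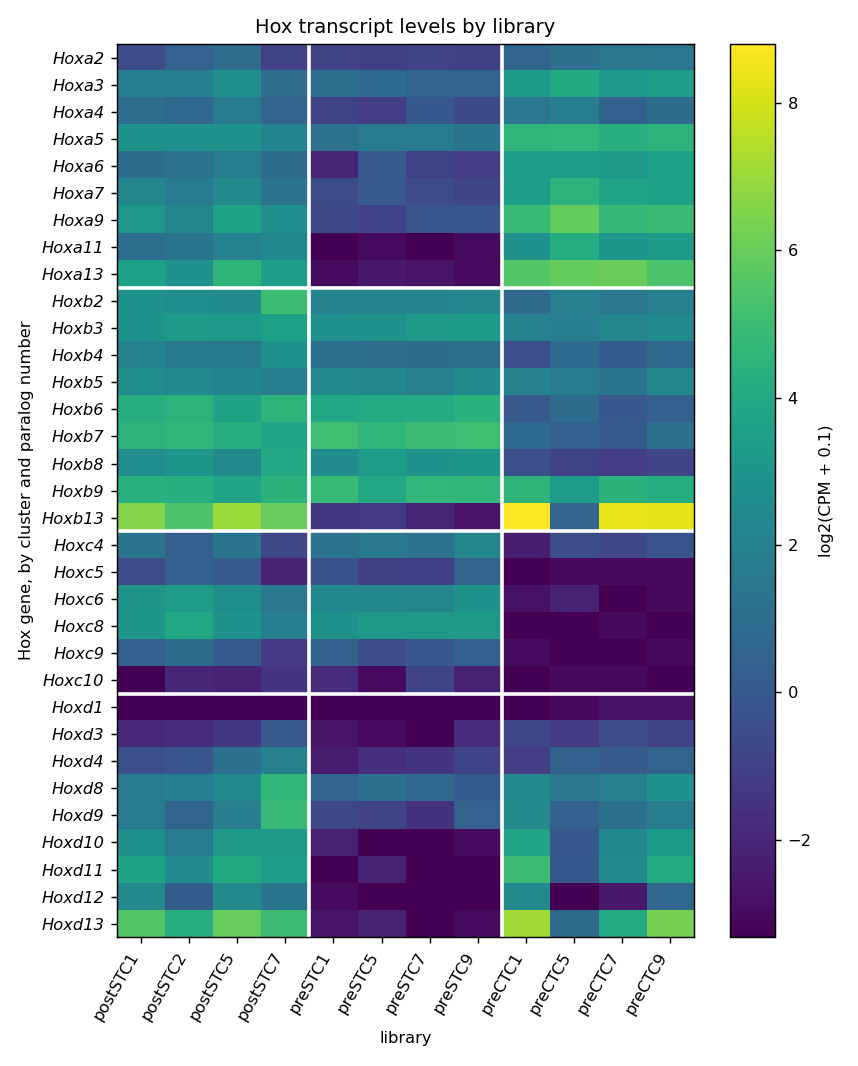
Levels of 33 of the 34 Hox genes (rows, by cluster and paralog number) in the 12 libraries (columns, postSTC, preSTC and preCTC from left to right), as log2(CPM + 0.1). Genes of paralog groups 10 to 13 are near 0 in preSTC, cluster C is near 0 in preCTC, and postSTC shows both apart from Hoxc10, which is low in all groups; Hoxb13 of preCTC5 (1.44 CPM) is low beside the other preCTC libraries.

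Paralog groups 10 to 13 together made up 55.3, 34.6, 66.5 and 40.0% of the summed Hox FPKM in postSTC replicates 1, 2, 5 and 7. They made up 0.491, 0.600, 0.447 and 0.166% in preSTC replicates 1, 5, 7 and 9, and 86.7, 41.0, 82.5 and 82.1% in preCTC replicates 1, 5, 7 and 9. The postSTC and preCTC libraries thus lay far above every preSTC library, with preCTC5 inside the postSTC range. Paralog groups 6 to 8 gave 17.9 to 38.5% in postSTC, 52.8 to 61.5% in preSTC and 3.59 to 24.0% in preCTC. Cluster C gave 1.85 to 10.8% in postSTC, 9.24 to 12.5% in preSTC and 0.00964 to 0.106% in preCTC. These shares move with Hoxb13, the most abundant member in 7 libraries, so a lower share is not a lower level.

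**Figure D2:**
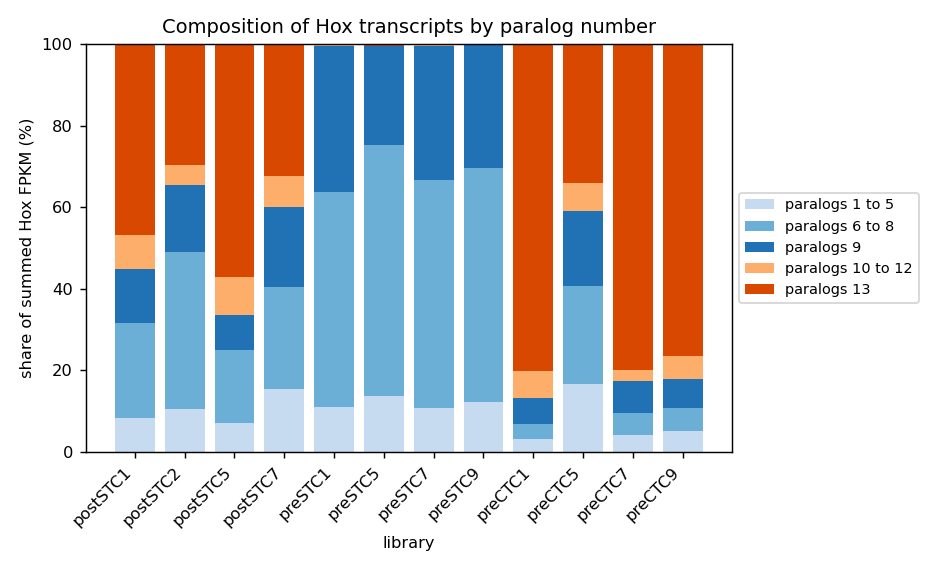
Share of the summed Hox FPKM (%, vertical axis) taken by each range of paralog numbers in each library (horizontal axis). Paralog groups 10 to 13 (orange) take 34.6 to 66.5% in postSTC, 0.166 to 0.600% in preSTC and 41.0 to 86.7% in preCTC.

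The comparison of postSTC with preSTC asked how Hox transcripts after the operation differed from those before it. Of 32 members that passed the expression filter, 16 (50%) were higher in postSTC, where 11.1% of all 15704 tested genes were. A gene counts as called when its p in edgeR's quasi-likelihood test, after Benjamini-Hochberg adjustment over all tested genes, is below 0.05. With that test 0 members were lower, against 6.9% of all genes, while 1 member, Hoxb7, was lower at an unadjusted p under 0.05 and in DESeq2, which called 19 higher. The median log2 fold change was 1.44 over the 32 members and 0.04 over all genes. By cluster, 8 of 10 members of A, 1 of 9 of B, 0 of 5 of C (also 0 at an unadjusted p under 0.05 and in DESeq2) and 7 of 8 of D were higher. By position, 9 of 11 members of paralog groups 9 to 13 were higher, against 3 of 8 of groups 6 to 8 and 4 of 13 of groups 1 to 5. Members near 0 in preSTC, such as Hoxa11 (2 counts there) and Hoxd12 (1 count), passed the filter only through the other groups. They could be called higher or not at all, so these counts by cluster and position are partly set by the filter. The libraries of the 2 groups did not overlap for 17 members, all higher in postSTC, against 11.9% of all genes, and for 0 members lower, against 10.2%.

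**Figure D3:**
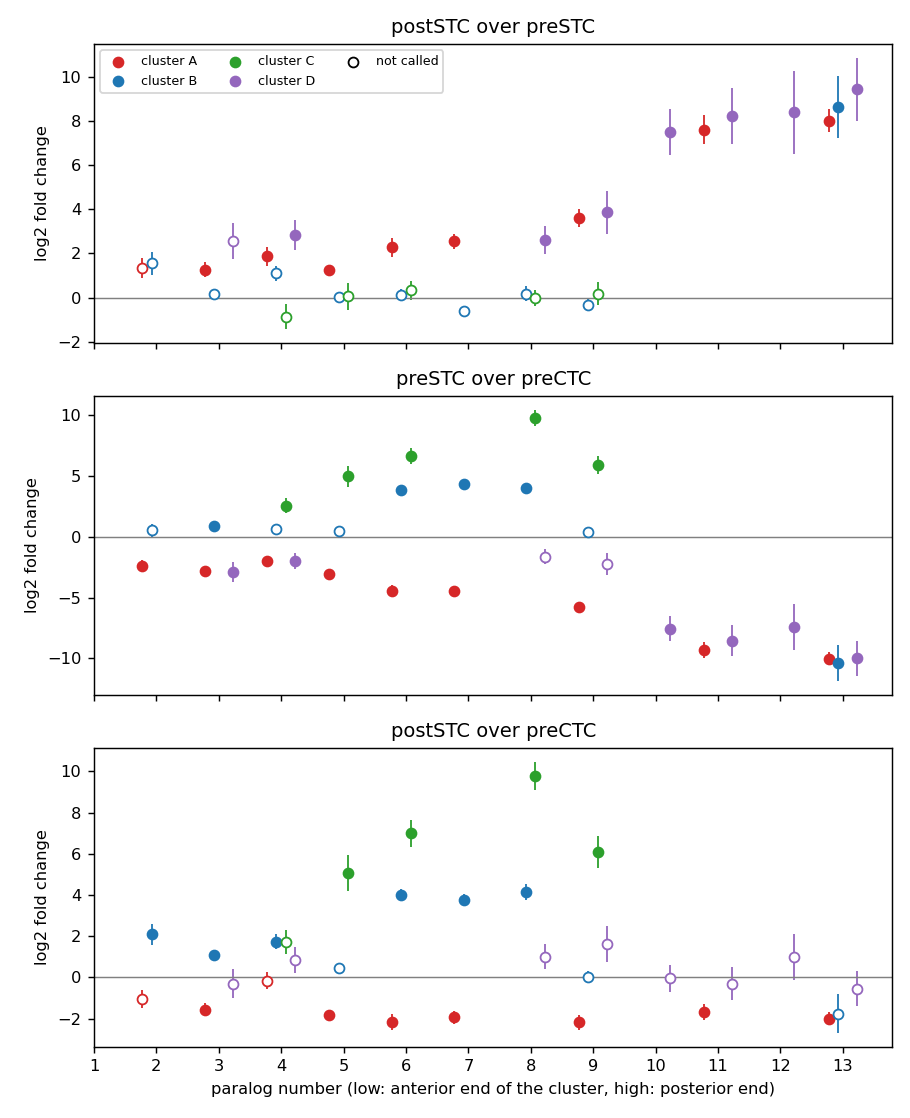
Fitted log2 fold change (vertical axis, bars are SE) of the tested Hox genes reported here, by paralog number (horizontal axis) in the 3 comparisons; filled points were called at an adjusted p under 0.05. In postSTC over preSTC the called points rise with paralog number in clusters A and D; in both comparisons with preCTC the called points of cluster C lie above 0 and those of cluster A below. Points of Hoxa11, Hoxd12, Hoxc5, Hoxc8 and Hoxc9 rest on 1 to 3 counts in a group.

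The members at the caudal end of the clusters differed most. Hoxd13, which in mice is needed for digits and the anal sphincter, had 47.6, 20.1, 63.3 and 31.3 CPM in postSTC replicates 1, 2, 5 and 7, against 0.0582, 0.129, 0 and 0.0280 CPM in preSTC replicates 1, 5, 7 and 9. Every postSTC library lay far above every preSTC library, and the log2 fold change was 9.45 ± 1.44 (SE; adjusted p in edgeR = 0.0021). Hoxb13, known as a gene of the distal bowel and the prostate, had 92.7, 42.2, 125 and 62.8 CPM in postSTC, against 0.291, 0.311, 0.135 and 0.0560 CPM in preSTC, a log2 fold change of 8.64 ± 1.40. Hoxa13, needed with Hoxd13 for the mouse hindgut, had 12.3, 6.80, 23.4 and 11.1 CPM in postSTC, against 0.0291, 0.0777, 0.0540 and 0.0280 CPM in preSTC, with the smallest adjusted p of the members (3.34e-05). For all 3 genes postSTC2 was the lowest and postSTC5 the highest postSTC library. The ratio of Hoxb13 to Hoxa13 counts stayed between 5.33 and 7.57 in the 4 postSTC libraries, and that of Hoxd13 to Hoxa13 counts between 2.71 and 3.89.

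**Figure D4:**
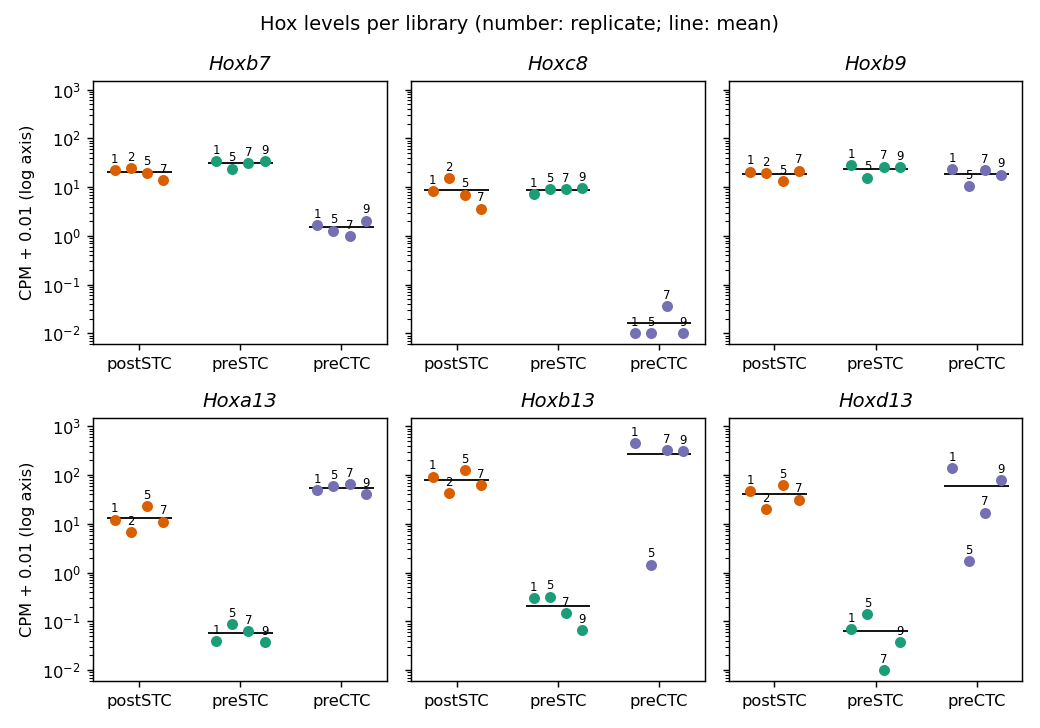
CPM (log axis, 0.01 added) of 6 Hox genes in each library, by group (horizontal axis); numbers are replicates and lines are means of 4 libraries. Hoxa13, Hoxb13 and Hoxd13 of postSTC lie above preSTC without overlap, Hoxb7 and Hoxc8 of both STC groups lie above preCTC without overlap, and Hoxb9 overlaps in all groups.

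Of the genes of paralog groups 10 to 12, known from limb and kidney patterning, the 4 of clusters A and D were higher in postSTC, and Hoxc10, with 17 counts in postSTC and 29 in preSTC, was not tested. Hoxa11 had 422 counts in the 4 postSTC libraries and 2 in the 4 preSTC libraries, a ratio of 234 after scaling (95% counting interval 64.4 to 1938). Hoxd12 had 453 counts in postSTC and 1 in preSTC, a ratio of 502 (95% counting interval 89.7 to 19880). Hoxd10 was 7.52 ± 1.04 and Hoxd11 8.25 ± 1.28 higher on the log2 scale (SE; adjusted p in edgeR = 0.00142 and 0.00221), and the preSTC counts of Hoxd11 came from 1 library. Fold changes over so few preSTC counts move with 1 library, to 9.13 ± 1.29 for Hoxd10 without preSTC1, and to 11.7 ± 2.03 for Hoxd11 and 10.3 ± 1.82 for Hoxd13 without preSTC5. In paralog group 9, Hoxa9, a gene of blood stem cells and of the lumbar and sacral trunk, had 8.73, 4.61, 13.1 and 6.00 CPM in postSTC and 0.524, 0.440, 0.837 and 0.869 CPM in preSTC (log2 fold change 3.60 ± 0.41, SE). Hoxd9 was 3.86 ± 0.96 higher (SE; adjusted p in edgeR = 0.0183), and 2.05 ± 0.59 higher (adjusted p = 0.0342) without postSTC7, which had 29.2 CPM against 1.38 to 3.54 CPM in the other postSTC libraries. Its call was lost without preSTC1, preSTC5 or preSTC7, at adjusted p of 0.0568, 0.0538 and 0.0563, and that of Hoxd12 without preSTC1 (0.052).

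Members toward the anterior end of clusters A and D rose by less. Hoxa5, which acts in lung, stomach and gut development, had 7.50, 7.00, 7.24 and 4.34 CPM in postSTC, against 2.24, 3.24, 2.97 and 2.55 CPM in preSTC, without overlap (log2 fold change 1.25 ± 0.19, SE; adjusted p in edgeR = 0.00221). Hoxa3, needed in mice for the thymus and parathyroid, had 3.56, 3.67, 6.17 and 1.88 CPM in postSTC, against 1.98, 1.68, 1.40 and 1.34 CPM in preSTC (log2 fold change 1.26 ± 0.33). Its groups overlap through postSTC7 and preSTC1, and its call was lost without postSTC5 (adjusted p = 0.0633), preSTC5 (0.0524), preSTC7 (0.0673) or preSTC9 (0.0679). Hoxa4, Hoxa6 and Hoxa7, genes of the neck and thorax, were 1.86 ± 0.43, 2.27 ± 0.42 and 2.56 ± 0.34 higher on the log2 scale, Hoxa6 by 2.87 ± 0.36 without preSTC5. In cluster D, Hoxd4 was 2.83 ± 0.68 and Hoxd8 2.62 ± 0.63 higher (SE; adjusted p in edgeR = 0.0152 and 0.0161). Without postSTC7 the Hoxd4 value was 2.19 ± 0.61 and the Hoxd8 value 1.41 ± 0.33. For Hoxd8 that library had 25.3 CPM against 3.23 to 5.21 CPM in the other postSTC libraries.

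Cluster C and the middle of cluster B did not pass the test between postSTC and preSTC. Hoxc8, a thoracic gene and the cluster C member with the highest FPKM, had 8.31, 15.2, 7.05 and 3.63 CPM in postSTC and 7.16, 9.09, 9.05 and 9.41 CPM in preSTC. The postSTC libraries lay on both sides of the preSTC libraries. Hoxb6, Hoxb7 and Hoxb8, genes of the thoracic trunk, had 12.6 to 23.5, 13.9 to 24.8 and 5.43 to 15.7 CPM in postSTC, against 15.5 to 21.2, 23.9 to 34.1 and 5.71 to 9.84 CPM in preSTC. Hoxb9 had 13.3 to 21.9 CPM in postSTC and 15.7 to 28.8 CPM in preSTC. For Hoxb2 and Hoxb4 every postSTC library lay above every preSTC library, though neither was called. Their log2 fold changes were 1.55 ± 0.52 and 1.09 ± 0.36 (SE, adjusted p in edgeR = 0.0582 and 0.0539), and each was called in some fits without 1 library. For Hoxb2, postSTC7 had 32.3 CPM against 5.64 to 7.31 CPM in the other postSTC libraries. A p that misses the threshold does not show that these levels are equal.

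Libraries of postSTC and preSTC with the same number (1, 5 and 7) had deviations from their group means that correlated at 0.236, 0.158 and 0.168. Libraries of different numbers were not compared, so these values cannot show pairing, and the labels do not tie replicates to animals. With the replicate number as a block, 13 of the 16 calls stayed in the fit of all 12 libraries, without Hoxa3 (adjusted p = 0.0506), Hoxa4 (0.0677) and Hoxd8 (0.0519). In the blocked fit of the 8 libraries of both groups, 6 stayed, which were Hoxa11, Hoxa13, Hoxb13, Hoxd11, Hoxd12 and Hoxd13. Only the numbers 1, 5 and 7 occur in both groups, so postSTC2 and preSTC9 add nothing to the difference in that fit. Over all genes, 1746 were called in the blocked fit of 12 libraries and 68 in that of 8. The fit of 12 libraries without a block called 2833. Markers of muscle and connective tissue also differed between these 2 groups. The 12 smooth muscle markers summed to 6734 to 10194 CPM in postSTC and 3816 to 5771 CPM in preSTC, with 5 of 11 tested genes higher and 0 lower (0 also at an unadjusted p under 0.05 and in DESeq2). The 12 fibroblast and matrix markers summed to 2811 to 5238 CPM in postSTC and 2288 to 2958 CPM in preSTC, with 6 of 12 higher. Of 9 tested colon markers, 5 were higher and 0 lower (1 lower at an unadjusted p under 0.05 and in DESeq2), with a median log2 fold change of 1.90. Among them the water channel gene Aqp8 had 2.42 to 68.2 CPM in postSTC and 0.0270 to 0.786 CPM in preSTC, while B3galt5, the most abundant of the list in both groups by its mean, had 268 to 594 CPM in postSTC and 555 to 992 CPM in preSTC and was not called. The 12 epithelial markers summed to 9032 to 18286 CPM in postSTC and 17670 to 22250 CPM in preSTC, with 0 higher (0 also at an unadjusted p under 0.05 and in DESeq2) and 1 lower. With a smooth muscle score as a covariate, 7 of 16 calls stayed (Hoxa9, Hoxa11, Hoxa13, Hoxb13, Hoxd10, Hoxd11 and Hoxd13). In that fit 174 of all genes were called, against 2833 without the score. The log2 score was 8.36 to 8.95 in postSTC and 7.47 to 8.03 in preSTC, without overlap. The fit therefore cannot cleanly separate muscle content from group. Beyond this the part of these cells in the differences was not tested. In bulk RNA, fewer cells of a type and less RNA per cell cannot be told apart. Without postSTC7, 17 members were higher.

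The comparison of preSTC with preCTC set 2 groups taken before surgery against each other. Of the 32 tested members, 9 were higher in preSTC (19.1% of all genes were) and 16 lower (19.6% of all genes). The higher members were 5 of 5 of cluster C and 4 of 9 of cluster B, and the lower ones 9 of 10 of cluster A, 6 of 8 of cluster D and 1 of 9 of cluster B. Members near 0 in 1 of the groups, such as Hoxc8 in preCTC and Hoxa11 in preSTC, passed the filter only through other groups. The direction of such calls was therefore set by the filter. The median log2 fold change was -2.00 over the members and -0.02 over all genes, and the median of its absolute value 3.93 against 0.44. The libraries did not overlap for 11 members higher and 15 lower in preSTC, against 22.5% of all genes in each direction. This comparison and the preceding one share the preSTC libraries, so the same preSTC values stand in both.

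Among members higher in preSTC, Hoxc8 had 1268 counts in the 4 preSTC libraries and 1 in the 4 preCTC libraries, a ratio of 1376 after scaling (95% counting interval 246 to 54380). Hoxc6, of the thoracic trunk, had 4.95, 4.97, 4.70 and 7.26 CPM in preSTC, against 0.0523, 0.127, 0 and 0.0241 CPM in preCTC, a log2 fold change of 6.66 ± 0.63 (SE; adjusted p in edgeR = 1.52e-05). It rests on 8 preCTC counts and was 7.57 ± 0.69 without preCTC5. Hoxc5 and Hoxc9 had 103 and 141 counts in preSTC against 3 and 2 in preCTC, ratios of 37.3 (95% counting interval 12.4 to 184) and 76.5 (20.8 to 638). In cluster B the higher members were Hoxb3 and the trunk genes Hoxb6 to Hoxb8. Hoxb6, Hoxb7 and Hoxb8 were 3.87 ± 0.28, 4.37 ± 0.26 and 3.99 ± 0.39 higher on the log2 scale (SE; adjusted p in edgeR of 1.76e-05 or less), and Hoxb3 0.93 ± 0.20 higher. Hoxb9, next to Hoxb8 on chromosome 10, had 15.7 to 28.8 CPM in preSTC and 10.3 to 23.8 CPM in preCTC and was not called.

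Among members lower in preSTC, Hoxa13 had 0.0280 to 0.0777 CPM in preSTC, against 48.5, 60.1, 64.7 and 40.6 CPM in preCTC replicates 1, 5, 7 and 9, a log2 fold change of -10.02 ± 0.52 (SE; adjusted p in edgeR = 1.46e-07). Hoxb13 had 0.0560 to 0.311 CPM in preSTC, against 445, 1.44, 331 and 315 CPM in preCTC (log2 fold change -10.4 ± 1.47, SE). Hoxd13 had 0 to 0.129 CPM in preSTC, against 138, 1.70, 16.9 and 79.1 CPM in preCTC (log2 fold change -9.98 ± 1.45, SE; -9.13 ± 1.33 without preCTC1 and -10.9 ± 1.83 without preSTC5). The lowest preCTC library, replicate 5, was still above every preSTC library for Hoxb13 and Hoxd13. Cluster A differed less toward its anterior end, with log2 fold changes of -2.37 ± 0.46 for Hoxa2, -3.08 ± 0.20 for Hoxa5, -4.43 ± 0.45 for Hoxa6 (-5.03 ± 0.39 without preSTC5) and -5.77 ± 0.44 for Hoxa9 (SE; adjusted p in edgeR of 0.00185 or less). Hoxa11 had 2 counts in preSTC and 1696 in preCTC. Hoxd4 was lower by 1.98 ± 0.66 (adjusted p = 0.0333), a call lost without preCTC5, preCTC7, preCTC9, preSTC1, preSTC5 or preSTC7 (adjusted p 0.0578 to 0.0833).

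Smooth muscle markers summed to 3816 to 5771 CPM in preSTC and 11230 to 18815 CPM in preCTC (0 of 11 tested genes higher, 10 lower), and fibroblast and matrix markers to 2288 to 2958 CPM and 6289 to 9431 CPM (0 of 12 higher, 10 lower); in both lists 0 were higher also at an unadjusted p under 0.05 and in DESeq2. Markers of enteric neurons and glia summed to 93.8 to 124 CPM in preSTC and 145 to 216 CPM in preCTC (5 of 13 lower). Epithelial markers differed the other way without overlap, with sums of 17670 to 22250 CPM in preSTC and 11950 to 16897 CPM in preCTC (5 of 12 higher). The part of these cells in the Hox values was not tested beyond the smooth muscle score. With the smooth muscle score in the fit, 15 of the 25 calls stayed, among them Hoxa5 to Hoxa13, Hoxb6 to Hoxb8, Hoxb13, Hoxc6, Hoxc8, Hoxd10, Hoxd11 and Hoxd13. Without preCTC5 there were 9 higher and 15 lower.

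The comparison of postSTC with preCTC showed 4 of 5 genes of cluster C and 6 of 9 of cluster B higher in postSTC, and 7 of 10 of cluster A lower. Cluster D had 0 of 8 called (0 also at an unadjusted p under 0.05 and in DESeq2). Of 32 members, 10 were higher (9.27% of all genes) and 7 lower (7.37% of all genes). The higher members of cluster B were Hoxb2 to Hoxb4 and Hoxb6 to Hoxb8, and all 7 lower members were of cluster A. Cluster C members near 0 in preCTC, such as Hoxc8, passed the filter only through the STC groups and could be called higher or not at all. The libraries did not overlap for 10 members higher and 7 lower, against 9.54 and 8.6% of all genes. The median log2 fold change was 0.34 over the members and 0.04 over all genes.

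Hoxc8 had 1218 counts in the 4 postSTC libraries and 1 in the 4 preCTC libraries, a ratio of 1465 after scaling (95% counting interval 262 to 57910). Hoxc6 had 7.53, 10.5, 6.54 and 2.82 CPM in postSTC, against 0 to 0.127 CPM in preCTC (log2 fold change 6.99 ± 0.64, SE; adjusted p in edgeR = 2.7e-05), and 7.90 ± 0.69 without preCTC5. Hoxb6, Hoxb7 and Hoxb8 were 4.00 ± 0.28, 3.77 ± 0.26 and 4.17 ± 0.39 higher on the log2 scale. Hoxb3 and Hoxb4, of the hindbrain and neck, were 1.11 ± 0.20 and 1.72 ± 0.36 higher (SE; adjusted p in edgeR = 0.00323 and 0.00785). Hoxb2, a hindbrain gene, was 2.09 ± 0.53 higher (SE; adjusted p in edgeR = 0.0195). Its postSTC7 value of 32.3 CPM stood above 5.64 to 7.31 CPM in the other postSTC libraries and 1.75 to 3.80 CPM in preCTC. Without postSTC7 the log2 fold change was 1.08 ± 0.25 (adjusted p = 0.0121), and the call was lost without preCTC1 (0.0596) or preCTC7 (0.0538).

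In cluster A, Hoxa9 had 8.73, 4.61, 13.1 and 6.00 CPM in postSTC, against 28.3, 60.5, 26.7 and 30.9 CPM in preCTC, without overlap (log2 fold change -2.17 ± 0.37, SE; adjusted p in edgeR = 0.002). Hoxa6 had 1.88, 2.27, 3.27 and 1.84 CPM in postSTC, against 9.99, 10.8, 9.05 and 11.7 CPM in preCTC (log2 fold change -2.16 ± 0.40). Hoxa3, Hoxa5, Hoxa7, Hoxa11 and Hoxa13 were lower by 1.56 ± 0.33, 1.84 ± 0.19, 1.93 ± 0.32, 1.68 ± 0.40 and 2.00 ± 0.31 on the log2 scale. The 7 called genes of cluster A lay within -2.17 to -1.56 on the log2 scale, a range from which the call itself keeps small changes. Toward the anterior end, Hoxa4 (-0.15 ± 0.40) and Hoxa2 (-1.05 ± 0.43) were not called. Hoxb13 averaged 80.6 ± 35.9 CPM in postSTC and 273 ± 190 CPM in preCTC (SD, n = 4) and was not called (log2 fold change -1.76 ± 0.94, edgeR adjusted p = 0.233). Without preCTC5 it was -2.17 ± 0.35 (edgeR adjusted p = 0.0024). Smooth muscle markers summed to 6734 to 10194 CPM in postSTC and 11230 to 18815 CPM in preCTC, and with their score as a covariate 14 of the 17 calls stayed, without Hoxa3, Hoxa9 and Hoxa11. In that fit 1642 of all genes were called, against 2612 without the score. The log2 score was 8.36 to 8.95 in postSTC and 8.92 to 9.65 in preCTC, which barely overlap. Muscle content and group are therefore hard to separate in this comparison as well.

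Within preCTC the members did not move together. The library preCTC5 held the highest Hoxa9 (60.5 CPM against 26.7 to 30.9) and Hoxa11 (18.2 CPM against 6.65 to 9.78) of the group and the lowest Hoxb13, Hoxd10, Hoxd11, Hoxd12 and Hoxd13. Cluster A took 81.3% of its Hox FPKM, against 13.3, 22.0 and 17.6% in preCTC replicates 1, 7 and 9. Hoxd11 had 31.9, 0.913, 5.37 and 17.6 CPM in preCTC replicates 1, 5, 7 and 9, and Hoxd10 had 13.3, 0.887, 4.96 and 9.59 CPM. Replicate 5 was lowest, then 7, 9 and 1, in each of Hoxd10 to Hoxd13, while Hoxa13 varied between 40.6 and 64.7 CPM in another order. The count ratio of Hoxd13 to Hoxa13 was 2.84, 0.0283, 0.261 and 1.95 in these libraries, against 2.71 to 3.89 in postSTC. The smooth muscle sum of preCTC5 was 18815 CPM, against 11230 to 11327 CPM in the other 3, and the colon epithelial gene Car1 had 3108 CPM there, against 226 to 494 CPM. Their part in the Hox values was not tested.

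**Figure D5:**
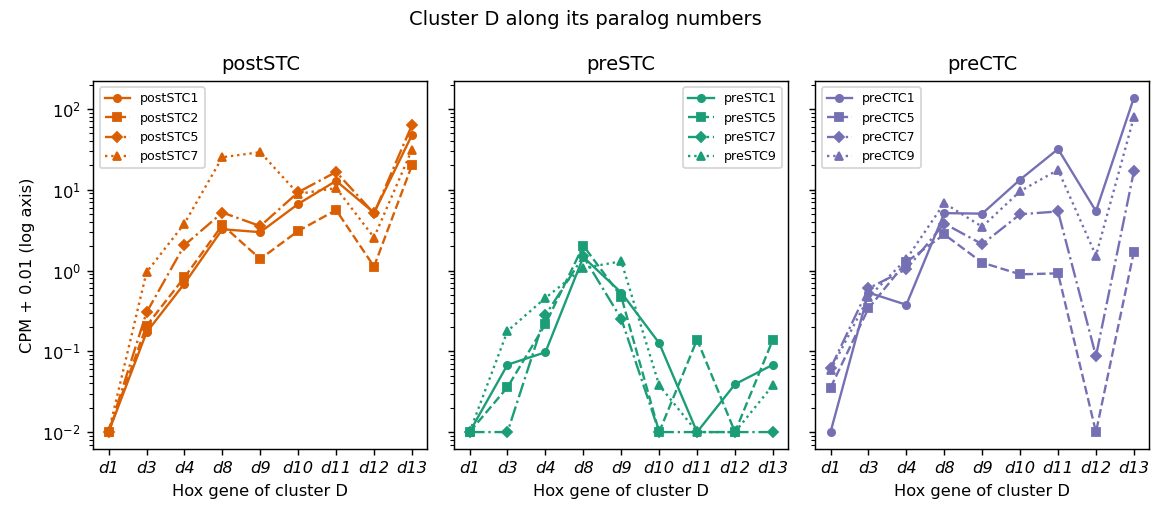
CPM (log axis, 0.01 added) of the 9 cluster D genes in order of paralog number (horizontal axis), 1 line per library, for postSTC, preSTC and preCTC. The preSTC lines end near 0 from Hoxd10 on, the postSTC lines end between 20.1 and 63.3 CPM at Hoxd13, and the preCTC lines spread from 1.70 CPM in replicate 5 to 138 CPM in replicate 1.

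The members at the edge of the expression filter were near the counting limit. Just inside it, Hoxd3 had 0.162, 0.197, 0.293 and 0.941 CPM in postSTC, 0.0582, 0.0259, 0 and 0.168 CPM in preSTC, and 0.523, 0.330, 0.591 and 0.458 CPM in preCTC. It was lower in preSTC than in preCTC by 2.86 ± 0.82 (SE; adjusted p in edgeR = 0.0159), and by 3.92 ± 0.91 without preSTC9. Just outside the filter, Hoxc10 had 17 counts in postSTC, 29 in preSTC and 2 in preCTC, and Hoxd1 had 0 counts in postSTC, 0 in preSTC and 5 in preCTC. Neither was tested.

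Genes outside the clusters with the profile closest to paralog group 13 were named by the smallest root mean square difference of centred log2 CPM over the 12 libraries, as a description. Lpo, which encodes lactoperoxidase, RGD1562319 and Vsig1 were closest to Hoxa13, at 0.58, 0.78 and 0.82. Atp12a, which encodes the non-gastric proton and potassium pump of the distal colon, Sval1 and Tgm3, a transglutaminase gene, were closest to Hoxb13, at 0.62, 0.87 and 1.01. Sval1, Atp12a and Sftpd, the gene of surfactant protein D, were closest to Hoxd13, at 1.13, 1.36 and 1.40. Atp12a had 180, 53.7, 149 and 303 CPM in postSTC, 0.243 to 0.757 CPM in preSTC, and 801, 2.03, 1129 and 687 CPM in preCTC, so preCTC5 was low for it too.

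Counts in the lists of cofactors, regulators and flanking genes stand beside 11.1% of all genes higher and 6.9% lower in postSTC against preSTC, 19.1 and 19.6% in preSTC against preCTC, and 9.27 and 7.37% in postSTC against preCTC. Of the 14 list genes called between postSTC and preSTC, 0 were called with the replicate block in the 8 libraries of both groups (68 of all genes were). With the smooth muscle score as covariate 1 list gene was called (174 of all genes were). Of the cofactor and regulator lists, the TALE cofactors had the largest shift between postSTC and preSTC, with 4 of 9 higher and 0 lower (1 lower at an unadjusted p under 0.05, 0 in DESeq2; median log2 fold change 1.00, against 0.04 for all genes). Meis3, Meis2 and Meis1 were 1.44 ± 0.28, 1.33 ± 0.22 and 1.12 ± 0.24 higher on the log2 scale, and Pknox2 was the remaining called gene. Meis2 averaged 21.0 ± 3.52 CPM in postSTC and 8.34 ± 2.45 CPM in preSTC (SD, n = 4). Against preCTC, 3 of 9 were lower in preSTC (Pbx4, Meis1 and Pbx3), and 1 of 9 was higher in postSTC (Meis2, by 0.80 ± 0.22). The caudal gene Cdx1, an intestinal regulator of Hox genes, averaged 130 ± 40.0 CPM in postSTC, 141 ± 15.7 CPM in preSTC and 235 ± 37.5 CPM in preCTC (SD, n = 4). It was lower than in preCTC by 0.85 ± 0.21 in postSTC and by 0.74 ± 0.21 in preSTC (edgeR adjusted p = 0.0187 and 0.0173). Cdx2 averaged 172 ± 70.0, 286 ± 46.4 and 265 ± 85.1 CPM in these groups and was not called, and the caudal and ParaHox list had 1 of 3 tested genes lower in each comparison with preCTC.

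In the retinoic acid list, 1 of 13 tested genes was higher in postSTC than in preSTC, a share under that of all genes. It was the receptor gene Rarg (22.4 ± 13.4 CPM in postSTC and 8.96 ± 1.29 CPM in preSTC, SD, n = 4). In preSTC against preCTC 1 was higher and 4 lower, and in postSTC against preCTC 1 was higher and 1 lower. The higher gene was Aldh1a3, of retinoic acid synthesis, with 42.7 ± 17.8 CPM in postSTC, 47.8 ± 9.12 CPM in preSTC and 7.41 ± 1.41 CPM in preCTC. The lower genes with the largest changes were Rxrg (by 1.75 ± 0.50), Aldh1a1 (by 1.58 ± 0.48) and Rarg (by 1.41 ± 0.31) in preSTC, and Rxrb (by 0.60 ± 0.12) in postSTC.

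Of 20 Polycomb genes, whose products keep Hox genes silent, 2 were higher and 3 lower in postSTC than in preSTC, a higher share close to that of all genes. The lower ones were Jarid2 (by 0.93 ± 0.09), Ezh2, the catalytic subunit (by 0.92 ± 0.13), and Suz12, and the higher ones Cbx7 (0.91 ± 0.20) and Ezh1. Ezh2 averaged 22.9 ± 3.96 CPM in postSTC, 43.3 ± 5.40 CPM in preSTC and 21.4 ± 1.27 CPM in preCTC (SD, n = 4). In preSTC against preCTC 6 were higher and 4 lower, led by Cbx2 (1.23 ± 0.37), Phf19 (1.14 ± 0.35) and Ezh1 (-1.04 ± 0.12), and in postSTC against preCTC 1 was higher (Phf19) and 3 lower. Of 12 Trithorax and demethylase genes, whose products keep Hox genes active, 2 were lower in postSTC than in preSTC (Dpy30 by 0.36 ± 0.10 and Wdr5 by 0.33 ± 0.10), 3 were higher in preSTC than in preCTC and 0 were called between postSTC and preCTC (0 also at an unadjusted p under 0.05 and in DESeq2).

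Of the genes that flank the clusters, 2 of 12 tested were higher in postSTC than in preSTC. Evx2, a homeobox gene next to Hoxd13, averaged 1.20 ± 0.52 CPM in postSTC, 0.00647 ± 0.0129 CPM in preSTC and 1.40 ± 1.47 CPM in preCTC (SD, n = 4, edgeR adjusted p = 0.00859 for postSTC against preSTC). Calcoco1 was 0.68 ± 0.15 higher. In preSTC against preCTC 2 were higher and 6 lower, among them Ttll6, next to Hoxb13, by 2.53 ± 0.40, and in postSTC against preCTC 0 were higher (1 at an unadjusted p under 0.05, 0 in DESeq2) and 4 lower, with Ttll6 lower by 1.90 ± 0.39. Skap1, beyond the anterior end of cluster B, was 1.71 ± 0.50 higher in preSTC than in preCTC.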

How the data were processed

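Per the labels' protocols, RNA was extracted with TRIzol and libraries came from a VAHTS kit. The authors deposited a table of whole read counts by gene and a second table with FPKM values. The submitters' processing notes name fastp, HISAT2, HTSeq and the assembly mRatBN7.2. The series' design text names a pig genome and other tools and was not used. Strand use is not given in the sources used here, so the 11 Hox genes that overlap another annotated gene (Hoxa3 to Hoxa6, Hoxb3, Hoxb5, Hoxb6, Hoxc4 to Hoxc6 and Hoxd4) are uncertain as single genes.

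All 12 libraries entered 1 edgeR 4.0.16 quasi-likelihood fit (R 4.3.3; group as the only term, TMM scaling, filterByExpr), which kept 15704 of 18749 genes (83.8%). P-values were two-sided and adjusted over all of these by Benjamini and Hochberg, with a threshold of 0.05. The SE is the absolute log2 fold change over the square root of F. The fit was tested on simulated counts. DESeq2 1.42.0 and limma 3.58.1 (on log2 FPKM plus 0.1 or 1) were alternatives. CPM and its mean ± SD use TMM factors, and FPKM values were divided by them.

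No pair of replicates agreed within sampling noise (lowest chi-square per gene 32.0). Deviations from group means of postSTC and preSTC libraries of the same number correlated at 0.236, 0.158 and 0.168 (numbers 1, 5 and 7). Without correlations between libraries of different numbers these values cannot show pairing, and the block is an alternative. Hox rows were chosen by symbol, and members, lists and tests were chosen with earlier results of these data known. Values per library are given for paralog group 13, for the member of highest FPKM per cluster, for the 2 highest and 2 lowest called members per comparison and for members next to the filter; in each list, for at most 3 called genes per comparison plus Cdx1 and Cdx2. The RefSeq tables of GRCr8 gave gene order and promoters, and no coordinate was moved between assemblies. The values of 1 Hox gene are not reported here, though counts and medians over the members include it.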

Additional observations from a re-analysis of the deposited data

Results flagged for a closer look

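In 13 of 97 groups of 4 libraries (a Hox gene in 1 group), the highest or lowest library stood off from the other 3 by Dixon's 95% criterion. For normally distributed values chance exceeds it in about 1 group in 20. Of these libraries 5 were postSTC7, which had 32.3 CPM of Hoxb2, 0.941 CPM of Hoxd3, 25.3 CPM of Hoxd8 and 29.2 CPM of Hoxd9 as the highest, and 4.34 CPM of Hoxa5 as the lowest. This is the library in which 43.5% of counts came from genes of the male accessory glands. In preSTC the libraries that stood off were preSTC9 for Hoxb2 (4.79 CPM) and Hoxc6 (7.26 CPM), preSTC1 for Hoxc8 (7.16 CPM) and Hoxd12 (0.0291 CPM), and preSTC5 for Hoxd11 (0.129 CPM). In preCTC they were preCTC5 for Hoxa9 (60.5 CPM), preCTC7 for Hoxc8 (0.0257 CPM) and preCTC1 for Hoxc5 (0 CPM). The values of Hoxc5, Hoxc8, Hoxd11 and Hoxd12 here rest on a few counts. For Hoxc8, Hoxd11 and Hoxd12 only 1 library of the group had any count, and the criterion is then always met. The 13 of 97 groups therefore cannot be set against 1 in 20.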

How the results depend on the processing

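Of 58 calls of a Hox gene in a comparison, 25 kept their call and direction in all 24 alternatives, and 53 in all fits that left out 1 library. With 1 library left out, 14 to 19 members were higher and 0 lower (in each fit) in postSTC against preSTC, 9 higher (in each fit) and 15 to 18 lower in preSTC against preCTC, and 9 to 11 higher and 7 to 8 lower in postSTC against preCTC; the partner genes called ranged over 11 to 23, 23 to 36 and 5 to 18. In postSTC against preSTC the partner calls were 14 and became 23 without postSTC1, and in postSTC against preCTC 5 without preCTC1.

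In postSTC against preSTC the 16 higher members became 6 with the replicate block in the 8 libraries compared, 8 in limma on log2(FPKM + 1) and 7 with the smooth muscle covariate. Calls over all genes went from 2833 to 68, 521 and 174 in these 3 fits, and partner calls became 0, 5 and 1. DESeq2 gave 1 member lower, and limma on log2(FPKM + 0.1) gave 4 partner calls. In preSTC against preCTC the covariate left 5 higher and 10 lower members and 3 partner calls, with 731 of all genes called against 6077 without it. Limma with 1 added gave 19 partner calls. There libraries of the same number correlated at -0.0278 to 0.222, and the block kept all 25 member calls. In postSTC against preCTC the block left 4 higher and 2 lower members in the 8-library fit, where 153 of all genes were called. In both blocked 8-library fits with postSTC only the numbers 1, 5 and 7 are matched, so fewer libraries bear on the difference. The covariate left 4 lower. The partner calls were 5 in the 8-library fit without block, 4 and 1 with the block in 12 and 8 libraries, 5 in each limma fit and 7 with the covariate. With the covariate Hoxd4 turned to 1.23 in preSTC against preCTC. Of 38 uncalled values, 25 changed sign in at least 1 alternative and 11 were called in at least 1. Of these 11, Hoxb2 (-0.096 in postSTC against preSTC) changed sign with the covariate. So did Hoxb9 (-0.38), Hoxd8 (0.044) and Hoxd9 (0.40) in preSTC against preCTC. The cause was not tested. Limma on log2(FPKM + 0.1), which changes unit, scaling and test together, moved the median of all genes by -0.13, -0.15 and -0.28 on the log2 scale in the 3 comparisons, with 29.9% and 31.4% of calls higher in place of 49.3% and 55.7% in the comparisons with preCTC; upper quartile scaling gave 46% in postSTC against preCTC. Members near 0 counts are limited by depth.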
